A study of Mus musculus with 20 samples.

Results

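Bone sialoprotein, the transcription factors that direct osteoblasts and their companion genes were followed across 4 groups of mouse samples. The set holds 8 genes, Ibsp, Dlx5, Dlx6, Dlx3, Runx2, Sp7, Spp1 and Alpl, and every probe set that the array's gene table names with 1 of these symbols was taken. That gave 8 probe sets of 45037, for 5 of the 17097 genes that the table names alone: 2 each for Ibsp, Dlx3 and Dlx6, and 1 each for Sp7 and Dlx5. No probe set was found under Runx2, Spp1 or Alpl by symbol, synonym or Entrez number, and these 3 genes were not analysed here. Of the 8 probe sets, 6 passed the filter on dim signals (above the array's median on at least 4 of the 20 arrays) and were tested. The 2 Ibsp probe sets passed through CDS tumors alone (6 and 4 arrays) and that of Dlx6 through 4 ES tumors alone. Dlx5 passed on 7 arrays, the ES tumors and CDS tumor 1. These were thus testable only through the group where they are high. Counts of their calls below are therefore no test of an excess over all probe sets. The second probe sets of Dlx3 and Dlx6 did not pass and are described by their values.

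CDS tumors (6 arrays, tumors 1 to 6) are CIC-DUX4 sarcomas, grown as subcutaneous masses in Balb/c nude mice after transplantation of mouse embryonic mesenchymal cells that carried CIC-DUX4, in which the repressor CIC is joined to DUX4, a transcription factor. ES tumors (6 arrays, numbered 41, 46, 47, 48, 49 and 51) are labelled Ewing sarcoma of the mouse. The cells from which they were made and the fusion they carry were not given in the sources used here. eMC CIC-DUX4 (4 arrays, 5 to 8) are primary embryonic mesenchymal cells 48 hours after spinofection with the retrovirus pMYs-CIC-DUX4-IRES-GFP. eMC empty (4 arrays, 4 to 7) are the same kind of cells 48 hours after pMYs-IRES-GFP, the control vector. Both cultures were kept in Iscove's modified DMEM with 15% FBS, no tumor was treated, and the age of the animals was not given. A tumor holds host cells beside the sarcoma cells, and fewer cells of a type cannot be told apart from less RNA per cell. Whether the eMC arrays of a group stem from different cultures is not stated, and a p-value then covers no more than the spread between these samples, which may be technical.

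Osteoblasts build bone by secreting a collagen matrix and loading it with mineral. Runx2 commits mesenchymal cells to this fate and Sp7 (osterix) acts after it, while the homeobox factors Dlx3, Dlx5 and Dlx6, which also pattern jaws and limbs, act with both in osteoblasts. Ibsp encodes bone sialoprotein, an acidic, integrin-binding matrix protein that promotes the start of mineral deposition. It belongs with Spp1 (osteopontin), Dmp1, Mepe and Dspp to the SIBLING proteins, whose genes lie side by side, and Alpl encodes the alkaline phosphatase that frees phosphate for mineral.

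The promoter of Ibsp is shown because Ibsp is the matrix gene among the members that have a probe set. It had a bright signal, by the dip described below, in 3 of 6 CDS tumors. The 250 bases before the RefSeq start of Ibsp lie on the plus strand at chr5:104299037-104299286 of GRCm38.p6, and capitals mark a CCAAT box read on the minus strand.
Ibsp: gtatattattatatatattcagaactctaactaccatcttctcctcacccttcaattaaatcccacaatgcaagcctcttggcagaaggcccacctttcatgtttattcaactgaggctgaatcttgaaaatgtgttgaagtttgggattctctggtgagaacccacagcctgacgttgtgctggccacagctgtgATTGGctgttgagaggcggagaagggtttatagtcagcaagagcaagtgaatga
The box, CCAAT or ATTGG, begins 54 bases before the start. It was looked for after the sequence had been seen, and 33.85% of 32851 promoters hold one in the same window on either strand. The letters of the Runx site, ACCACA, were not in the window (14.05% of promoters hold them), nor were TAATTA, a core bound by homeodomains (4.84%), GGGCGG, the GC box (32.74%), or TGAATGAA, the letters bound by CIC (1.081%), each searched on both strands. A match or its absence describes these letters only. The window does hold CAATTAA, which shares AATTA with TAATTA and was not searched for. The window ends in TGAATGA, so its edge cuts off the search for TGAATGAA there, and no other form of the CIC site was searched for. No promoter entry matched Sp7, Dlx3, Dlx5 or Dlx6.

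Signals are log2 values after a small offset, so that a deposited 0 appears as 1.28. On 19 of the 20 arrays the distribution has a dip between dim and bright probe sets, at 3.22 to 8.18, and a probe set under the dip is not well above background there. The arrays differ in distribution: median signals were 2.33 to 4.01 on 17 arrays, 5.67 in CDS tumor 2, 6.13 in eMC CIC-DUX4 5 and 7.05 in eMC CIC-DUX4 6, which has no dip. Over all 26897 tested probe sets, the median log2 difference of CDS tumors was 0.89 against eMC empty, 0.21 against ES tumors and -0.94 against eMC CIC-DUX4. With eMC empty as the control, it was 0.41 for ES tumors and 1.98 for eMC CIC-DUX4. Differences are therefore given as deposited and again after quantile normalization, where these medians lie between -0.07 and -0.01. As a check of the labels on known readouts of the fusion, Etv1, Etv4, Etv5 and Vgf were called higher in CDS tumors against all other groups, 4 of 4 each time. Etv1, Etv5 and Vgf, but not Etv4, were called higher in eMC CIC-DUX4 than in eMC empty, where 46.4% of all genes were called higher. A list of 4 Ewing sarcoma genes, 2 of them tested, did not set the ES tumors apart. Both were called higher in ES tumors than in eMC empty, but 0 were called higher in ES than in CDS tumors. Fli1 was called lower in ES tumors (9.41 ± 0.73) than in CDS tumors (13.01 ± 0.61, SD, n = 6 each).

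**Figure D1:**
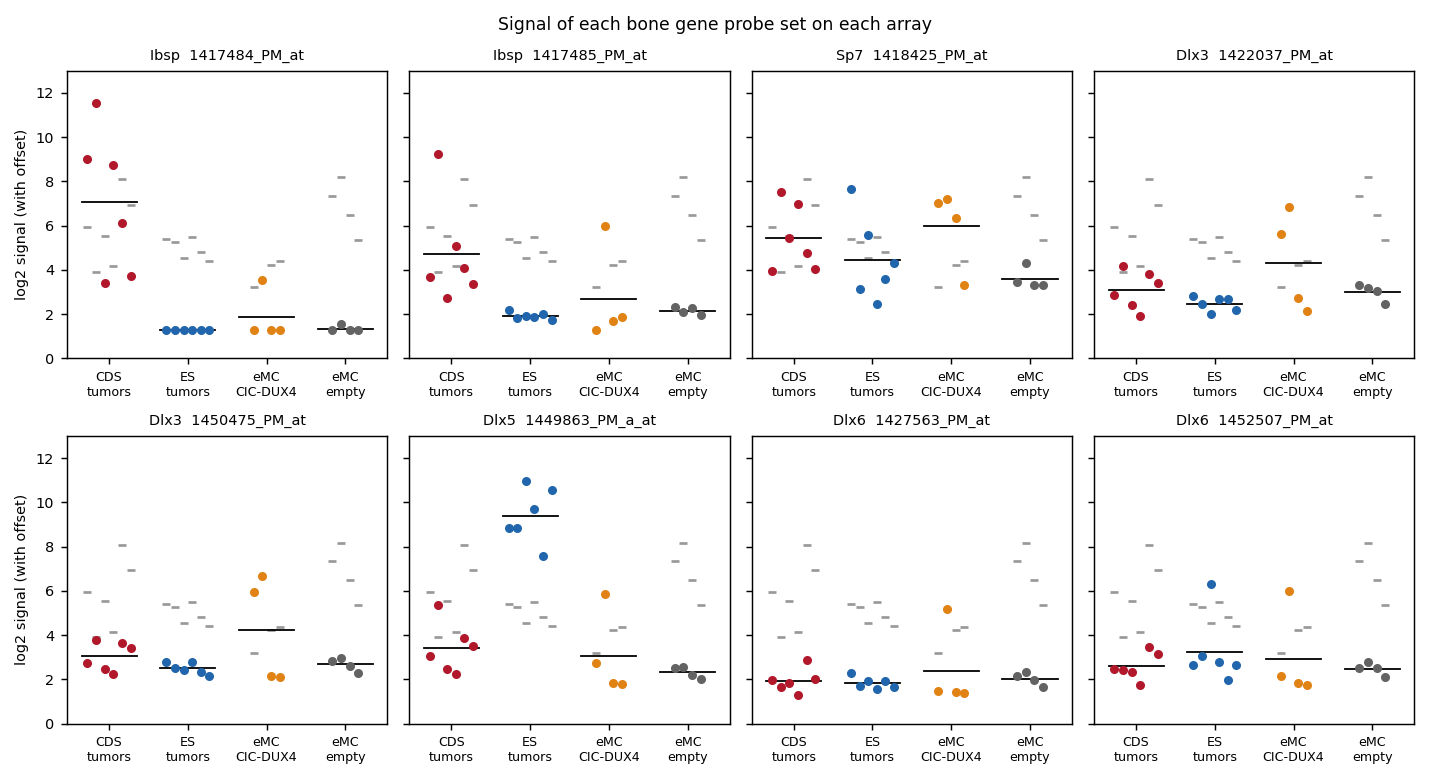
Log2 signal of the 8 probe sets on each of the 20 arrays, 1 panel a probe set, with CDS tumors, ES tumors, eMC CIC-DUX4 and eMC empty from left to right; black lines are group means and grey dashes mark the dip of each array. Ibsp is high in some CDS tumors, with 11.54 as its highest value, and Dlx5 in all 6 ES tumors, at 7.57 to 10.95.

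Ibsp was the bone gene called higher in the CDS tumors, where it was above the array's dip in 3 of 6. Probe set 1417484_PM_at had log2 signals of 8.99, 11.54, 3.40, 8.72, 6.13 and 3.73 in CDS tumors 1 to 6. It was listed at 0 in all 6 ES tumors. It was listed at 0 in 3 of 4 eMC CIC-DUX4 arrays, with 3.56 on array 6, and in 3 of 4 eMC empty arrays, with 1.53 on array 5. CDS tumors 1, 2 and 4 were above their dip and tumors 3, 5 and 6 below it. This split depends on the dips, which lay at 3.92 to 8.09 in CDS tumors. After quantile normalization tumor 5 had 9.37, above tumors 1 (8.74) and 4 (7.11). Every CDS tumor was above every ES tumor and every eMC empty array, while tumor 3 was below eMC CIC-DUX4 6.

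Ibsp by 1417484_PM_at was called higher in CDS tumors than in eMC empty, with an adjusted p of 0.00426 (limma, Benjamini-Hochberg over all probe sets), at least 1.18-fold higher. The bound is set against the dips of the eMC empty arrays, which lie at 5.37 to 8.18. The fitted difference, which rests on signals below the dip, was 5.74 ± 1.32 log2 (SE) and 6.14 ± 1.28 after quantile normalization. With an offset of 16 the call was lost (adjusted p = 0.0816). A call needed an adjusted p under 0.05 and a log2 difference of at least 1. In this comparison 1 of 6 tested bone probe sets was called, higher, where 18.1% of all probe sets were called, 13.2% higher and 4.89% lower. After quantile normalization 2 of 6 were called, both Ibsp and higher, where 38.1% of all were called, 18.2% higher and 19.9% lower. Against ES tumors the adjusted p was 0.00114 (0.000469 after quantile normalization), and no fold is given because all ES tumors are listed at 0.

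Against eMC CIC-DUX4, Ibsp by 1417484_PM_at was called higher in CDS tumors as deposited (adjusted p = 0.0216) and after quantile normalization (adjusted p = 0.00228). No fold is given: 3 of the 4 eMC CIC-DUX4 arrays are listed at 0 and the other has no dip, so the fitted difference of 5.23 ± 1.44 log2 depends on the offset. It was again the 1 bone probe set of 6 called, with 16.6% of all probe sets called, 4.47% higher and 12.1% lower. After quantile normalization 3 of 6 were called higher (both Ibsp probe sets and Sp7), with 36.1% of all called, 17.1% higher and 19.0% lower. The call was lost without CDS tumor 1 (adjusted p = 0.0503), without eMC CIC-DUX4 5 (0.0665), without eMC CIC-DUX4 7 (0.0583), with an offset of 16 (0.0583) and when the 3 arrays of high median were left out (0.0637). The direction was the same each time. Between eMC CIC-DUX4 and eMC empty, Ibsp was not called at 48 hours by either probe set (adjusted p = 0.808 and 0.727).

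The second Ibsp probe set, 1417485_PM_at, was dimmer. It had 3.70, 9.23, 2.71, 5.10, 4.09 and 3.38 in CDS tumors 1 to 6, against 1.71 to 2.17 in the ES tumors. The eMC CIC-DUX4 arrays had 1.28 (listed at 0), 5.98, 1.69 and 1.86, and the eMC empty arrays 2.31, 2.10, 2.27 and 1.94. Tumor 2 was highest by both probe sets, and tumors 2 and 4 were above their dip. All 6 CDS tumors lay above all ES tumors and all eMC empty arrays. On eMC CIC-DUX4 6, the array with no dip, 5.98 is above only 22% of that array's probe sets.

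By this probe set Ibsp was called higher in CDS than in ES tumors (adjusted p = 0.0175, means 4.70 ± 2.35 and 1.91 ± 0.15, SD, n = 6 each). No fold is given, since the bound from the dip is under 1. Against eMC empty the fitted difference, which rests on signals below the dip, was 2.54 ± 0.92 log2 and missed the threshold (adjusted p = 0.0586), but it was called after quantile normalization (2.26 ± 0.80, adjusted p = 0.0309), without CDS tumor 2 (1.64, adjusted p = 0.0124) and without CDS tumor 3 (2.94, adjusted p = 0.0336). Against eMC CIC-DUX4 it was 2.00 ± 1.28 (adjusted p = 0.284) and 2.26 ± 0.81 after quantile normalization (adjusted p = 0.0351). Over the 20 arrays, which share preparation and scaling, the Ibsp probe sets had a Pearson r of 0.90 after quantile normalization.

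RNA quality varied within the CDS tumors. The Actb signal at the 3′ end less that at the 5′ end, which grows as RNA degrades, was 0.76, 0.70 and 0.31 log2 in CDS tumors 1, 2 and 4, and 0.58, 1.16 and 1.28 in tumors 3, 5 and 6. It was 0.80 ± 0.36 (SD, n = 6) in all CDS tumors, 0.25 ± 0.05 (n = 6) in ES tumors, 0.22 ± 0.02 in the 4 eMC CIC-DUX4 arrays and 0.17 ± 0.03 in the 4 eMC empty arrays. The part of RNA quality in these results was not tested.

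Sp7, the osteoblast factor that acts after Runx2, was above the dip on some arrays of 3 groups and set none of them apart on both scales. Probe set 1418425_PM_at had 3.93, 7.52, 5.43, 6.99, 4.76 and 4.02 in CDS tumors 1 to 6. The ES tumors 41, 46, 47, 48, 49 and 51 had 7.65, 3.14, 5.59, 2.45, 3.58 and 4.31. The eMC CIC-DUX4 arrays 5 to 8 had 7.04, 7.18, 6.35 and 3.30, and the eMC empty arrays 4 to 7 had 3.45, 4.30, 3.33 and 3.30. It was above the dip in CDS tumors 2 and 4, ES tumors 41 and 47, and eMC CIC-DUX4 5 and 7, and in none of the eMC empty arrays, so bright Sp7 occurred in 2 arrays of each of 3 groups. CDS tumors 2 and 4, highest for Sp7 among CDS tumors as deposited, are also above the dip for Ibsp. That order depended on the scale: after quantile normalization CDS tumors 1 and 3 had 6.22 and 6.13, and tumors 2 and 4 had 4.95 and 4.82. ES tumor 41 is above the dip for Sp7 and listed at 0 for Ibsp.

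Between CDS and ES tumors, Sp7 differed by 0.99 ± 1.04 log2 (adjusted p = 0.492, 95% interval -1.17 to 3.15), and against eMC empty the CDS tumors differed by 1.85 ± 0.96 (adjusted p = 0.169). In eMC CIC-DUX4 against eMC empty, Sp7 was called higher as deposited by 2.37 ± 0.84 log2 (adjusted p = 0.0373, no fold from the dip), which is 0.40 above the median of all probe sets. It was the 1 bone probe set of 6 called there, with 47.5% of all probe sets called, 43.4% higher and 4.18% lower. After quantile normalization none of the 6 was called by limma (2 had an unadjusted p under 0.05), with 13.5% of all called, 7.43% higher and 6.11% lower. After quantile normalization Sp7 had the opposite sign, -0.89 ± 0.35 (adjusted p = 0.0466, below the fold threshold). The deposited call was lost in 7 of 8 fits that each left out 1 array, every one but that without eMC CIC-DUX4 8, with adjusted p of 0.0533 to 0.111. Against eMC CIC-DUX4, Sp7 in CDS tumors differed by -0.52 ± 1.09 as deposited (adjusted p = 0.759) and was called higher after quantile normalization, by 1.16 ± 0.39 (adjusted p = 0.0243).

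Dlx5, a homeobox factor of developing bone and of forebrain interneurons, was the bone regulator called higher in the ES tumors. Probe set 1449863_PM_a_at had 8.83, 8.84, 10.95, 9.68, 7.57 and 10.56 in ES tumors 41, 46, 47, 48, 49 and 51, against 2.53, 2.55, 2.22 and 2.03 in the eMC empty arrays. All 6 ES tumors were above their dip and no eMC empty array was. Dlx5 was at least 5.90-fold higher in ES tumors than in eMC empty (fitted difference 7.07 ± 0.77 log2, adjusted p = 2.03e-05), and the difference was 6.34 ± 0.70 after quantile normalization (adjusted p = 2.44e-05). It was the 1 bone probe set of 6 called, with 35.6% of all probe sets called, 25.8% higher and 9.77% lower, and again the 1 called after quantile normalization, with 37.0% called, 18.0% higher and 19.0% lower.

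CDS tumors 1 to 6 had Dlx5 signals of 3.07, 5.37, 2.49, 2.26, 3.88 and 3.53. Every CDS tumor was below every ES tumor, with means of 3.43 ± 1.13 in CDS tumors and 9.40 ± 1.25 in ES tumors (SD, n = 6 each). Dlx5 was lower in CDS than in ES tumors by a log2 difference of -5.97 ± 0.93 (adjusted p = 0.000148), and of -5.55 ± 0.60 after quantile normalization (adjusted p = 6.56e-06). It was called lower beside the 2 Ibsp probe sets called higher, so 3 of 6 bone probe sets were called in CDS against ES tumors, with 19.8% of all probe sets called, 11.1% higher and 8.71% lower. Each of the 3 was testable only through the group where it is high, so this count is no test of an excess. After quantile normalization the same 3 and Dlx6, lower, were called, with 30.8% of all called, 15.2% higher and 15.7% lower. Each of the 3 calls on deposited values stood in all 12 fits that left out 1 tumor.

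Outside the ES tumors Dlx5 was dim. CDS tumor 2 was above its low dip, yet its value lay under the median of its own array. The eMC CIC-DUX4 arrays 5 to 8 had 2.75, 5.87, 1.83 and 1.78, where 5.87 on array 6 is above only 19% of that array's probe sets. CDS tumors and eMC empty differed by 1.10 ± 0.50 log2 (adjusted p = 0.126). After quantile normalization their ranges were apart, and the difference of 0.79 ± 0.16 had an adjusted p of 0.00127, below the fold threshold.

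Dlx6 lies next to Dlx5 in the genome and the pair is often expressed together in development, but its signal stayed low in most ES tumors. Probe set 1452507_PM_at had 2.64, 3.06, 6.30, 2.79, 1.98 and 2.64 in ES tumors 41, 46, 47, 48, 49 and 51, against 2.51, 2.78, 2.52 and 2.11 in eMC empty. ES tumor 47, which also had the highest Dlx5, was the only 1 of the 19 arrays with a dip whose Dlx6 signal exceeded it. Dlx6 differed between ES tumors and eMC empty by 0.76 ± 0.66 log2 (adjusted p = 0.356), and by 0.97 ± 0.39 after quantile normalization (adjusted p = 0.0548).

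In CDS tumors 1 to 6 this Dlx6 probe set had 2.47, 2.43, 2.35, 1.75, 3.48 and 3.17, and in eMC CIC-DUX4 5 to 8 it had 2.17, 5.97, 1.86 and 1.76. CDS and ES tumors differed by -0.63 ± 0.57 log2 (adjusted p = 0.421), and after quantile normalization Dlx6 was called lower in CDS tumors, by -1.02 ± 0.32 (adjusted p = 0.0212). The other Dlx6 probe set, 1427563_PM_at, did not pass the filter and was above no dip. It had 1.28 to 2.88 in CDS tumors, 1.58 to 2.31 in ES tumors, 1.37 to 5.17 in the eMC CIC-DUX4 arrays and 1.65 to 2.33 in the eMC empty arrays, and its r with 1452507_PM_at was 0.37.

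Dlx3, a homeobox factor of bone, teeth, hair and placenta, was near background nearly everywhere. Probe set 1422037_PM_at had 2.87, 4.19, 2.42, 1.93, 3.82 and 3.39 in CDS tumors 1 to 6, and 2.02 to 2.81 in ES tumors. The eMC CIC-DUX4 arrays 5 to 8 had 5.60, 6.86, 2.71 and 2.15, and the eMC empty arrays 4 to 7 had 3.32, 3.17, 3.05 and 2.46. The only 2 arrays above their dip were CDS tumor 2 and eMC CIC-DUX4 5, both of high median. Dlx3 was called in no comparison, either as deposited or after quantile normalization. In CDS tumors against eMC empty it differed by -0.59 ± 0.21 log2 after quantile normalization (adjusted p = 0.0340), below the fold threshold and of the other sign than as deposited (0.10).

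The second Dlx3 probe set, 1450475_PM_at, did not pass the filter. It had 2.26 to 3.78 in CDS tumors, 2.17 to 2.80 in ES tumors, 2.12 to 6.66 in the eMC CIC-DUX4 arrays and 2.29 to 2.98 in the eMC empty arrays, and was above the dip only in eMC CIC-DUX4 5. Its r with the other Dlx3 probe set was 0.15. Of the other Dlx genes of the family list, Dlx2 was tested and called in no comparison, as deposited or after quantile normalization, and Dlx1 and Dlx4 did not pass the filter.

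**Figure D2:**
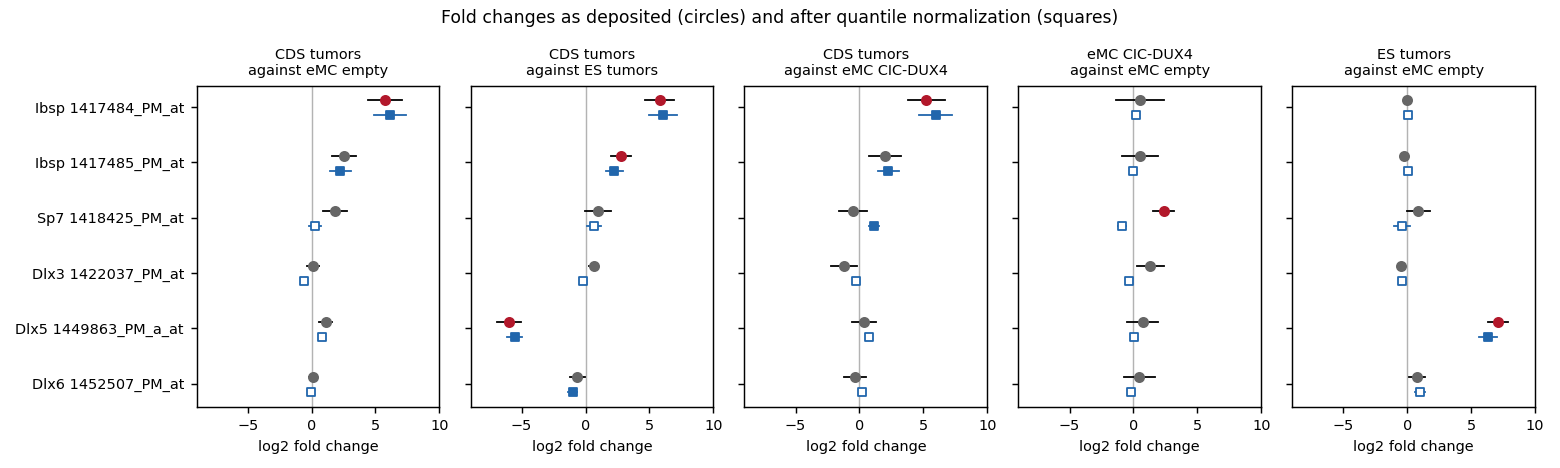
Fitted log2 differences ± SE of the 6 tested probe sets in the 5 comparisons, as deposited (circles, red where called) and after quantile normalization (squares, filled where called). Points of Ibsp 1417484_PM_at against groups listed at 0 rest on the offset and are no fold; Dlx5 lies at -5.97 in CDS against ES tumors and at 7.07 in ES tumors against eMC empty.

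The order of the groups was settled for few of these genes. By 1417485_PM_at, Ibsp averaged 4.70 ± 2.35 in CDS tumors, and the other groups, with every array that has a dip below it, are given no order: after quantile normalization their means were 2.25 in ES tumors, 2.21 in the eMC CIC-DUX4 arrays and 2.22 in the eMC empty arrays. The order of Sp7 depended on the scale. As deposited it ran eMC CIC-DUX4 (5.97 ± 1.82), CDS tumors (5.44 ± 1.51), ES tumors (4.45 ± 1.90) and eMC empty (3.59 ± 0.48), with no neighbours called apart. After quantile normalization the mean of CDS tumors was highest (5.35), then that of eMC empty (5.08), ES tumors (4.67) and last eMC CIC-DUX4 (4.18). Dlx5 as deposited ran ES tumors (9.40 ± 1.25), CDS tumors (3.43 ± 1.13), eMC CIC-DUX4 (3.06 ± 1.93) and eMC empty (2.33 ± 0.25), where only the step between ES and CDS tumors was called, on both scales. Errors are SD, with n = 6 for tumors and n = 4 for eMC.

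Other genes of bone were read from lists, with 1 probe set a gene. Of the SIBLING genes, Ibsp was the only 1 of 4 on the array to pass the filter. Mepe and Dmp1, which regulate mineral and phosphate, and Dspp, of dentin, did not pass. Mepe had 3.29 ± 1.05 in CDS tumors and 2.26 ± 0.18 in ES tumors (SD, n = 6 each), and was above the dip in 1 CDS tumor. Bglap (osteocalcin, the late osteoblast hormone of bone matrix) was not called between any groups named here and had 3.87 ± 1.37 in CDS tumors, 3.12 ± 0.56 in ES tumors, 5.10 ± 2.25 in the eMC CIC-DUX4 arrays and 3.21 ± 0.32 in the eMC empty arrays. It was above the dip in 1 CDS tumor and 1 eMC CIC-DUX4 array. The alkaline phosphatases Alpi, Akp3 and Alppl2, of intestine and embryo, did not pass.

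Several genes of bone matrix and mineral were higher in CDS than in ES tumors. Of 11 tested, 5 were called higher and 0 lower in CDS than in ES tumors (limma), where 21.1% of genes were called, 11.2% higher and 9.85% lower. At an unadjusted p under 0.05, 7 were higher and 0 lower. The median difference of the list was 1.40 log2, against 0.02 for all genes, and after quantile normalization 4 were called higher (33.0% of genes called, 16.8% higher and 16.2% lower). Col1a1, the main collagen of bone and skin, had 12.38 ± 0.18 in CDS tumors and 8.76 ± 1.33 in ES tumors (3.62 ± 0.50 log2, adjusted p = 3.86e-05, quantile 4.45). Postn, the periosteal matrix protein periostin, rose by 1.91 ± 0.36 and Bgn, the small proteoglycan biglycan, by 1.73 ± 0.28. Omd, the keratan sulfate proteoglycan osteomodulin, was called as deposited but not after quantile normalization (0.70). Markers of mesenchymal cells, a list that shares Col1a1, moved in the same comparison: of 7, 4 were called higher in CDS tumors (Col1a1, Col3a1, Twist1 and Pdgfrb) and 1 lower (Pdgfra, -4.95 ± 0.98), as deposited and after quantile normalization. The log2 of their summed linear signal was 15.08 to 16.85 in CDS tumors, 13.48 to 15.17 in ES tumors, 15.15 to 15.56 in the eMC CIC-DUX4 arrays and 16.02 to 16.81 in the eMC empty arrays, and their part in the matrix result was not tested.

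Against eMC empty, 1 matrix and mineral gene of 11 was called higher in CDS tumors and 1 lower, with 20.1% of genes called, 14.4% higher and 5.74% lower, and after quantile normalization 1 higher and 2 lower (36.8% of genes called, 17.6% higher and 19.2% lower). The list's median was -0.48 log2 where all genes had 0.89. Mgp, an inhibitor of calcification, had 13.90 ± 0.57 in CDS tumors and 12.76 ± 0.15 in eMC empty. Dcn, the collagen-binding proteoglycan decorin, had 11.99 ± 1.57 in CDS tumors and 15.10 ± 0.36 in eMC empty, a difference of -3.11 ± 0.56 (adjusted p = 0.000474). In ES tumors against eMC empty, 6 of the 11 fell and none rose (limma; 8 lower and 0 higher at an unadjusted p under 0.05). Of all genes 40.7% were called, 29.9% higher and 10.9% lower, or 36.4%, 17.4% and 19.0% after quantile normalization. Among the 6 were Col1a1 (-4.11 ± 0.60), Dcn (-3.28 ± 0.48), Postn (-2.77 ± 0.45) and Bgn (-2.51 ± 0.31).

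Of the 11 matrix and mineral genes, 3 were called higher and 3 lower in eMC CIC-DUX4 than in eMC empty as deposited, with 51.0% of genes called, 46.4% higher and 4.62% lower. After quantile normalization 2 were higher, with 12.9% of genes called, 8.13% higher and 4.81% lower. Phex, the peptidase-like regulator of phosphate balance, had 6.55 ± 1.06 in the eMC CIC-DUX4 arrays and 2.35 ± 0.08 in the eMC empty arrays (SD, n = 4 each; 4.19 ± 0.59 log2, quantile 2.06), with no fold from the dip. Sparc (osteonectin) differed by -1.44 ± 0.18 as deposited and by 0.03 after quantile normalization. In CDS tumors against eMC CIC-DUX4, none of the 11 was called higher (limma; 4 at an unadjusted p under 0.05) and 2 were called lower. Of all genes 17.9% were called, 5.09% higher and 12.8% lower, or 37.0%, 16.8% and 20.2% after quantile normalization. The 2 included Phex, at least 1.72-fold lower, with all CDS tumors below the dip and 2 listed at 0.

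**Figure D3:**
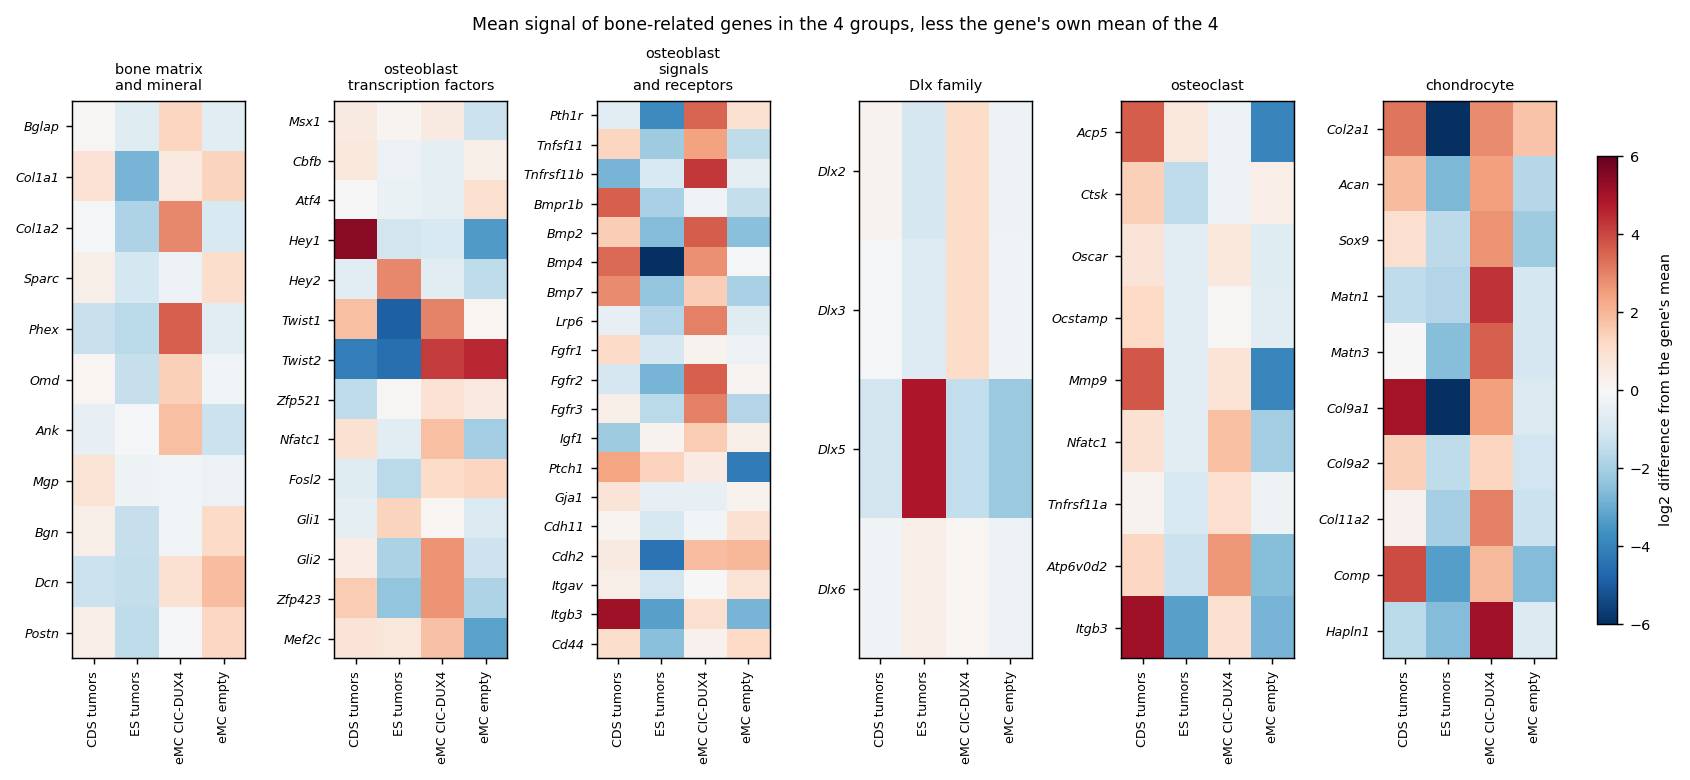
Group means of the tested genes of 6 lists (bone matrix and mineral, osteoblast transcription factors, osteoblast signals and receptors, Dlx family, osteoclast, chondrocyte), 1 row a gene, centred on the row's mean over the 4 groups. Colour gives the log2 difference within a row only and differences beyond the scale are drawn at its end; Hey1, at 11.97 in CDS tumors against 3.12 in eMC empty, is among the rows with strong contrast.

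Among osteoblast transcription factors, 3 of 14 were called higher and 1 lower in CDS than in ES tumors, and 2 higher and 1 lower than in eMC empty. Over all genes 11.2% were higher and 9.85% lower against ES tumors, and 14.4% and 5.74% against eMC empty. After quantile normalization the counts were 4 higher and 2 lower against ES tumors, and 3 and 3 against eMC empty. On that scale 16.8% of all genes were higher and 16.2% lower against ES tumors, and 17.6% and 19.2% against eMC empty. Hey1, a Notch target that restrains Runx2, had a signal in CDS tumors at least 34.9-fold higher than in eMC empty (11.97 ± 0.77 and 3.12 ± 0.27; adjusted p = 2.7e-08). It was 6.51 ± 0.87 log2 higher in CDS than in ES tumors. Twist1, which holds osteoblast differentiation back, was at least 19.3-fold higher in CDS than in ES tumors (9.26 ± 1.77 and 2.57 ± 0.38). Its relative Twist2 was at least 42.6-fold lower in CDS tumors than in eMC empty (2.50 ± 0.55 and 11.18 ± 0.23) and at least 73.1-fold lower in ES tumors than in eMC empty.

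Zfp423, a zinc-finger cofactor of BMP signalling, was called higher in CDS tumors by 3.88 ± 1.05 log2 against ES tumors and at least 1.19-fold higher against eMC empty (adjusted p = 0.0492). Hey2 was at least 1.60-fold lower in CDS than in ES tumors (adjusted p = 0.0285). Cbfb, the partner of the Runx proteins, had 13.51 ± 0.53 in CDS tumors, 12.52 ± 0.34 in ES tumors and 13.22 ± 0.29 in eMC empty, and was not called between these groups. It was called higher in CDS tumors than in eMC CIC-DUX4 as deposited (1.23 ± 0.27) but not after quantile normalization (0.82). Of the 14, 5 were called higher and 1 lower in eMC CIC-DUX4 than in eMC empty, where 46.4% of all genes were higher. After quantile normalization 1 was called, with 8.13% of all genes higher: Mef2c, a factor of muscle and bone, at least 5.02-fold higher (quantile 1.22).

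Signals and receptors of osteoblasts were called higher in CDS than in ES tumors for 14 of 19 genes and lower for 1, with a median of 2.17 log2 against 0.02 for all genes; after quantile normalization 13 were higher and 2 lower. Over all genes 11.2% were higher and 9.85% lower as deposited, and 16.8% and 16.2% after quantile normalization. Bmp4, a bone morphogenetic protein, was at least 123-fold higher in CDS than in ES tumors (11.93 ± 0.36 and 2.51 ± 0.48; adjusted p = 1.84e-08). Bmp7 was at least 8.85-fold higher and the receptor gene Bmpr1b at least 9.74-fold higher. Igf1, a growth factor of bone and other tissues, was the 1 gene called lower. Against eMC empty 7 of 19 were called higher and 1 lower in CDS tumors (14.4% and 5.74% of all genes), and 9 higher and 6 lower after quantile normalization (17.6% and 19.2%). Ptch1, the Hedgehog receptor, was among the higher genes (6.56 ± 0.75 log2, quantile 4.39).

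Itgb3, the integrin chain of the receptor that binds Ibsp and Spp1, was bright in all CDS tumors. The gene is on the list of signals and receptors and also counts among the osteoclast markers below. It had 10.39 to 11.75 in CDS tumors, 2.10 to 3.90 in ES tumors, 6.01 to 8.09 in the eMC CIC-DUX4 arrays and 2.80 to 3.94 in the eMC empty arrays. Itgb3 was at least 78.4-fold higher in CDS than in ES tumors (adjusted p = 1.79e-07) and at least 21.7-fold higher than in eMC empty (adjusted p = 1.87e-07). All 6 CDS tumors were above their dip for Itgb3, with Ibsp above the dip or below it.

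In ES tumors against eMC empty, 8 of 19 signal and receptor genes fell and 1 rose, where 10.9% of all genes were lower and 29.9% higher. Bmp4 was at least 10.6-fold lower in ES tumors, Pth1r, the parathyroid hormone receptor, at least 6.30-fold lower, and Ptch1 was higher by 5.57 ± 0.50 log2 (quantile 2.83). Between the eMC groups, 12 of 19 were called higher with CIC-DUX4 and 1 lower, and 7 higher after quantile normalization. Of all genes 46.4% were higher and 4.62% lower as deposited, and 8.13% higher after quantile normalization. Bmp2 rose at least 6.67-fold in eMC CIC-DUX4 (quantile 3.99), and Tnfrsf11b, osteoprotegerin, the decoy that blocks osteoclast formation, was higher by 4.76 ± 0.48 log2 (quantile 1.59). In CDS tumors against eMC CIC-DUX4 4 of 19 were called higher and 5 lower (5.09% and 12.8% of all genes), Tnfrsf11b at least 14.9-fold lower.

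Markers of other cell types were read in the same comparisons. Osteoclasts, which resorb bone, and hypertrophic chondrocytes also make Ibsp. Of the 11 osteoclast markers 10 were on the array and 9 tested; 5 were called higher and 0 lower in CDS than in ES tumors, and 6 higher and 0 lower than in eMC empty (limma; 7 and 8 higher and 0 lower at an unadjusted p under 0.05). Against eMC CIC-DUX4 4 were higher and 0 lower (4 and 0 unadjusted). Over all genes 11.2%, 14.4% and 5.09% were higher in these comparisons. The log2 of the list's summed linear signal was 14.02 to 15.81 in CDS tumors, 10.46 to 14.20 in ES tumors, 12.42 to 12.48 in the eMC CIC-DUX4 arrays and 12.46 to 12.70 in the eMC empty arrays. Such sums mostly follow the brightest genes of a list. With the control vector, Ctsk (cathepsin K) alone had 12.42 to 12.68, nearly the whole osteoclast sum. The mean log2 signal of the 10 markers was 4.10 to 4.63 there and 5.98 to 8.06 with CIC-DUX4. It was 7.07 to 8.33 in CDS tumors and 3.92 to 6.50 in ES tumors. Acp5, the acid phosphatase of osteoclasts and macrophages, had 11.86 to 14.22 in CDS tumors and 8.26 to 12.57 in ES tumors. No marker was listed at 0, and Calcr, the calcitonin receptor that defines osteoclasts, was under the dip in all CDS tumors (1.68 to 3.45) and did not pass the filter. The part of osteoclasts in the Ibsp signal was not tested beyond these values.

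Of 12 chondrocyte markers 10 were tested, and 8 were called higher and 0 lower in CDS than in ES tumors, and 4 higher and 0 lower than in eMC empty (limma; 9 and 6 higher and 0 lower at an unadjusted p under 0.05), where 11.2% and 14.4% of all genes were higher. After quantile normalization 6 were higher and 1 lower (Hapln1) against eMC empty, with 17.6% of all genes higher and 19.2% lower. Against eMC CIC-DUX4, 2 were higher and 3 lower in CDS tumors (5.09% and 12.8% of all genes), with a median of -1.16 log2: Hapln1, which links aggrecan in cartilage, was at least 12.9-fold lower, and the matrilins Matn1 and Matn3 were the others. In eMC CIC-DUX4, 9 of the 10 were called higher than in eMC empty (46.4% of all genes). The log2 of the chondrocyte list's summed linear signal was 14.54 to 15.83 in CDS tumors, 5.15 to 8.00 in ES tumors, 13.64 to 13.79 in the eMC CIC-DUX4 arrays and 11.63 to 12.11 in the eMC empty arrays. Col2a1, the cartilage collagen, was at least 281-fold higher in CDS than in ES tumors, and the range over CDS tumors was 12.54 to 13.73. Col10a1, which marks hypertrophic chondrocytes, was under the dip in all 6 CDS tumors (1.80 to 3.30). Macrophage markers, 11 of 12 tested, were called in neither direction between CDS and ES tumors (limma; 2 lower at an unadjusted p under 0.05) and 6 were higher in CDS tumors than in eMC empty (14.4% of all genes). Their summed log2 signal was 13.75 to 16.20 in CDS tumors, 14.36 to 15.93 in ES tumors, 14.38 to 14.71 in the eMC CIC-DUX4 arrays and 14.46 to 14.99 in the eMC empty arrays. With the control vector, Lyz2 (lysozyme) alone had 14.25 to 14.97, nearly the whole macrophage sum. The mean log2 signal of the 12 macrophage markers was 5.35 to 6.88 there and 7.40 to 9.05 with CIC-DUX4. It was 7.02 to 10.20 in CDS tumors and 9.06 to 10.83 in ES tumors. Of 5 tested endothelial markers, 4 were called higher in CDS tumors than in eMC empty, 2 than in ES tumors and 3 than in eMC CIC-DUX4, and 0 lower (limma; 5, 3 and 4 higher and 0 lower unadjusted). Cdh5, the cadherin of vessel walls, had 12.08 ± 0.34 in CDS tumors, 8.70 ± 1.13 in ES tumors, 4.36 ± 2.49 in the eMC CIC-DUX4 arrays and 2.75 ± 0.22 in the eMC empty arrays. The log2 of the summed linear signal of the 6 endothelial markers on the array was 12.11 to 13.06 in CDS tumors, 8.22 to 11.63 in ES tumors, 6.03 to 9.60 in the eMC CIC-DUX4 arrays and 4.69 to 5.44 in the eMC empty arrays. The part of chondrocytes, macrophages and endothelium in the results on bone genes was not tested.

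**Figure D4:**
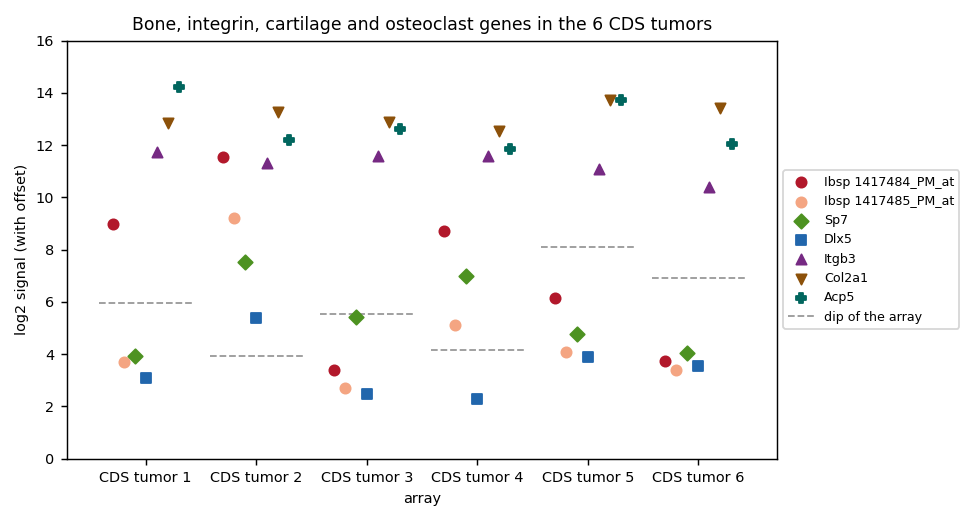
Log2 signals of both Ibsp probe sets, Sp7, Dlx5, Itgb3, Col2a1 and Acp5 in CDS tumors 1 to 6, with dashes at each array's dip; the genes were chosen after their values were seen. Ibsp spans 3.40 to 11.54 by its brighter probe set, while Itgb3 stays at 10.39 to 11.75 and Col2a1 at 12.54 to 13.73.

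Genes whose pattern over the 20 arrays was most like each bone gene were taken by Pearson r after quantile normalization. The points share groups and scaling, and r describes likeness only. For Ibsp they were C1ql3 (0.97), Hpgd (0.96) and Nkain2 (0.95), for Dlx5 Clstn2 (0.98), Cited1 (0.98) and Fut9 (0.98), and for Dlx6 Spock2 (0.93), Acvr2b (0.92) and Grm7 (0.91). The best matches were weaker for Sp7, C2cd2l (0.79), Klhdc3 (0.79) and Snapc2 (0.77), and for Dlx3, Oas1g (0.76), Uvssa (0.75) and Gstm3 (0.74). C1ql3, a secreted synaptic protein, had a mean of 6.77 in CDS tumors, 2.53 in ES tumors, 4.33 in the eMC CIC-DUX4 arrays and 3.02 in the eMC empty arrays, and Fut9, a fucosyltransferase, had 11.49 in ES tumors and 2.13 in eMC empty.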

How the data were processed

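Biotin-labelled cRNA of each sample was measured on an Affymetrix mouse array, per the labels' protocols. The deposited values are log2 signals, 1 column a sample, for which MAS5 is named per the submitters' processing notes; no source used here gives its version or settings. On the linear scale an offset of 1.42305 (0.25 of the median of array medians) was added and log2 taken again. Controls (104 of 45141 probe sets) were left out. Of 45037 others, 28898 had 1 gene symbol, 551 several and 15588 none, and 26897 exceeded their array's median on at least 4 of 20 arrays. Columns of no listed sample and identical arrays numbered 0.

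Each pair of groups was fitted with limma 3.58.1 (lmFit, eBayes with trend; R 4.3.3), two-sided, with Benjamini-Hochberg adjustment over all 26897 probe sets. Lists used each gene's probe set of highest mean, with calls from the same fit. Where every array of the dimmer group lay under its dip (density minimum, bandwidth 0.35), a fold is given as "at least": the brighter mean against the mean of the higher of dip and signal on each dimmer array. The number of arrays limits the precision. Steps were tested on simulated data. The members and lists were chosen with earlier results of these data known. Named genes are all members, up to 4 called genes of a list per comparison with the largest fold change, and 3 genes most like each member. Others (Sparc, Igf1, Cbfb, Bglap, Calcr, Col10a1, Lyz2, Hapln1, Matn1, Matn3, the SIBLING genes and the phosphatases) were chosen after their values were seen. Alternatives were the scaling, offset, filter, joint fit, arrays of high median, summary of probe sets, fold threshold, replicate block and each array left out. Promoter sequences are RefSeq's (GRCm38.p6).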

Additional observations from a re-analysis of the deposited data

Results flagged for a closer look

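Of 32 groups of values, 4 to 6 arrays of a probe set each, 8 had an array far from the others by Dixon's criterion. Chance flags about 1 in 20 groups of independent values, a rate that does not hold here: 4 of the 8 come from 1 array, and in both eMC groups of Ibsp 1417484_PM_at the other 3 arrays are at the floor, so that any signal above it is flagged. The array eMC CIC-DUX4 6, which has the highest median and no dip, stood apart for 4 probe sets: Ibsp 1417484_PM_at with 3.56 (the others 1.28), Ibsp 1417485_PM_at with 5.98 (next 1.86), Dlx6 1427563_PM_at with 5.17 (next 1.47) and Dlx6 1452507_PM_at with 5.97 (next 2.17). The array eMC empty 5 stood apart for Ibsp 1417484_PM_at with 1.53 (the others 1.28) and for Sp7 with 4.30 (next 3.45). CDS tumor 2 stood apart for Ibsp 1417485_PM_at with 9.23 (next 5.10). ES tumor 47 stood apart for Dlx6 1452507_PM_at with 6.30 (next 3.06).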

How the results depend on the processing

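Called bone probe sets numbered 1 in CDS tumors against eMC empty, and 2 after quantile normalization, with all 4 groups in 1 fit, with the replicate block and with the 3 high-median arrays left out, and 0 with an offset of 16 (limma; 1 at an unadjusted p under 0.05). Against eMC CIC-DUX4 the count of 1 became 3 after quantile normalization, 2 with equal medians and 0 with an offset of 16 (1 unadjusted) or without high-median arrays (3 unadjusted). In eMC CIC-DUX4 against eMC empty the count of 1 became 0 after quantile normalization (2 unadjusted), with equal medians, no filter or all 4 groups in 1 fit (1 unadjusted each) and without high-median arrays (2 unadjusted). Counts in CDS against ES tumors and in ES tumors against eMC empty stayed within 1.5 times under all alternatives. Leaving out 1 array gave 1 to 2 calls (CDS against eMC empty; 2 without CDS tumor 2 or 3), 3 to 3 (CDS against ES), 0 to 1 (CDS against eMC CIC-DUX4; 0 without CDS tumor 1 or eMC CIC-DUX4 5 or 7), 0 to 1 (eMC CIC-DUX4 against eMC empty) and 1 to 1 (ES against eMC empty). With an offset of 16, the adjusted p of Ibsp 1417484_PM_at in CDS tumors was 0.0816 against eMC empty and 0.0583 against eMC CIC-DUX4, and that of Ibsp 1417485_PM_at against ES tumors was 0.121. The cause of these changes was not tested.

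The fitted log2 differences that changed sign were of uncalled probe sets, except Sp7 in eMC CIC-DUX4 against eMC empty (-0.89 after quantile normalization). The others after quantile normalization were Dlx3 (-0.59) and Dlx6 (-0.040) in CDS against eMC empty; Dlx3 (-0.17) in CDS against ES; Sp7 (1.16) and Dlx6 (0.16) in CDS against eMC CIC-DUX4; Ibsp 1417485_PM_at (-0.0083), Dlx3 (-0.32) and Dlx6 (-0.20) between the eMC groups; and both Ibsp probe sets (0.068 and 0.026) and Sp7 (-0.41) in ES against eMC empty. With equal medians they were Dlx3 (-0.53) and Dlx6 (-0.35) in CDS against eMC empty; Sp7 (-0.11) and Dlx3 (-0.30) in CDS against ES; Sp7 (0.27) and Dlx6 (0.25) in CDS against eMC CIC-DUX4; Ibsp (-0.15 and -0.35), Dlx3 (-0.19), Dlx5 (-0.44) and Dlx6 (-0.60) between the eMC groups; and Ibsp 1417484_PM_at (0.10) in ES against eMC empty. Without high-median arrays they were Dlx3 (-0.11) in CDS against eMC empty; Sp7 (0.20), Dlx3 (0.46) and Dlx6 (0.83) in CDS against eMC CIC-DUX4; and Ibsp (-0.064 and -0.38), Dlx3 (-0.57), Dlx5 (-0.52) and Dlx6 (-0.67) in eMC CIC-DUX4 against eMC empty. Leaving out 1 array, ranges that crossed 0 were -0.11 to 0.34 (Dlx3) and -0.047 to 0.30 (Dlx6) in CDS against eMC empty; -0.049 to 1.31 (Dlx5) and -0.73 to 0.68 (Dlx6) in CDS against eMC CIC-DUX4; and -0.064 to 0.70 and -0.55 to 1.02 (Ibsp), -0.21 to 1.15 (Dlx5) and -0.55 to 0.86 (Dlx6) in eMC CIC-DUX4 against eMC empty.

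Whether the replicate numbers pair the arrays could not be settled, with only 2 or 3 shared numbers in a comparison. Same-numbered deviations correlated at -0.21, 0.51 and 0.06 (CDS and eMC empty), 0.33 and 0.13 (CDS and eMC CIC-DUX4) and 0.41, -0.18 and 0.41 (eMC CIC-DUX4 and eMC empty). The same number was the best match for 5 (CDS and eMC empty), 6 (CDS and eMC CIC-DUX4), and 5 and 7 (eMC groups), and not for the others. With the replicate block, 2 bone probe sets were called in CDS against eMC empty and 2, both lower (Sp7 and Dlx3), against eMC CIC-DUX4, where Ibsp 1417484_PM_at was not called (2.51 log2, adjusted p = 0.711), and Dlx3 (-0.13) in CDS against eMC empty and Dlx5 (-0.61) against eMC CIC-DUX4 changed sign. The block moved calls over all probe sets against eMC CIC-DUX4 to 17690, where 4456 were called without it. No paired analysis was possible with ES tumors because they share no numbers with other groups.

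Over all probe sets, calls after quantile normalization numbered 10254 against 4863 (CDS against eMC empty), 8291 against 5338 (CDS against ES), 9713 against 4456 (CDS against eMC CIC-DUX4) and 3643 against 12785 (eMC CIC-DUX4 against eMC empty). With equal medians they numbered 2070, 6049, 1919 and 0 (limma; 6189 at an unadjusted p under 0.05), and 8969 against 9579 in ES against eMC empty. The share of calls that were higher was 73.0% as deposited, 47.8% after quantile normalization and 50.6% with equal medians in CDS against eMC empty, 56.1%, 49.2% and 16.4% in CDS against ES, 27.0%, 47.4% and 33.6% in CDS against eMC CIC-DUX4, and 72.6%, 48.7% and 83.1% in ES against eMC empty. It was 91.2% and 54.9% in eMC CIC-DUX4 against eMC empty. An offset of 16 gave 3269 calls in CDS against eMC empty and 3591 in CDS against ES, and leaving out high-median arrays gave 1902 in CDS against eMC CIC-DUX4. Single arrays that moved such a count by over 1.5 times were eMC empty 4, 5 and 6 (2774, 2900 and 3199 without each, CDS against eMC empty), ES tumor 51 (3550, CDS against ES), and, in CDS against eMC CIC-DUX4, CDS tumor 2 (7219) with the eMC CIC-DUX4 arrays 5, 6 and 7 (2097, 2279 and 2530). Signals near or below the dip limit Dlx3, Dlx6 and the eMC values of Ibsp, Sp7 and Dlx5.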

Other observations

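The genes beside Ibsp and Dlx5 in the order of protein-coding genes of GRCm38.p6 were looked at after the data had been seen. Sparcl1, an extracellular glycoprotein gene 3 genes from Ibsp on chromosome 5, had 12.91 ± 0.56 in CDS tumors (SD, n = 6), 11.70 ± 1.00 in ES tumors (n = 6), 11.72 ± 0.18 in the eMC CIC-DUX4 arrays and 5.83 ± 1.95 in the eMC empty arrays (n = 4 each), while Dspp, Dmp1 and Mepe, which lie closer to Ibsp, did not pass the filter. On chromosome 6, Sdhaf3, next to Dlx5 on the other side from Dlx6, had 6.62 ± 1.99 in CDS tumors, 9.60 ± 0.31 in ES tumors, 9.86 ± 0.05 in the eMC CIC-DUX4 arrays and 6.74 ± 1.69 in the eMC empty arrays. Asns, 3 genes from Dlx5, had 9.23 ± 1.39 in CDS tumors, 12.93 ± 0.47 in ES tumors, 12.51 ± 0.20 in the eMC CIC-DUX4 arrays and 13.66 ± 0.28 in the eMC empty arrays.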
